A study of Homo sapiens with 9 samples.

Results

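The transcripts of 7 subunits of the GABA-A receptor were followed in HEK293 cells with reduced SmcHD1, a chromatin protein of the structural maintenance of chromosomes family. The subunit genes are GABRA2, GABRA3, GABRA5, GABRB1, GABRB2, GABRE and GABRQ, found by mapping the RefSeq accession of each array probe to its gene. They make up 7 of the 19 subunit genes of the family and 7 of 35181 genes or unnamed transcripts on the array. They were picked with their differences between the groups below already known, so their values are given as a description and carry no test. All 8 of their probes were kept, and 7 probes of 6 genes were bright enough to be fitted.

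HEK293 is a line derived from human embryonic kidney. Stable populations were made by retroviral infection with a vector carrying a short hairpin RNA (shRNA). Cells with shRNA 3 (KD3) and cells with shRNA 4 (KD4) carried hairpins against SMCHD1, while cells with the hairpin NC5 (CTL) served as the control, with 3 arrays in each group. By the methods, infected cells were selected with puromycin. All 9 samples grew in DMEM with serum, and no treatment after the selection is described. The study calls the arrays biological triplicates without naming separate infections, so the p-values below measure the spread between these samples. Differences between KD3 and KD4 can belong to the hairpin, to the cell population or to the depth of the knock-down, and these cannot be told apart.

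The hairpins are shown because every comparison below is between them. They are read 5′ to 3′ as the sample labels give them, with the longest stretch in which the arms pair with each other in capitals.
shRNA 3: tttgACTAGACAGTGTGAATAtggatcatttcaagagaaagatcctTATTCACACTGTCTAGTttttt
shRNA 4: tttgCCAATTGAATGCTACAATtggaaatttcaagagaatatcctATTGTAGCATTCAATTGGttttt
NC5: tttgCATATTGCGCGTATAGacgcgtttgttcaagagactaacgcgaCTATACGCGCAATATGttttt
The paired stretch held 17 bases in shRNA 3, 18 bases in shRNA 4 and 16 bases in NC5.

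GABA-A receptors are chloride channels opened by the neurotransmitter GABA, and each channel is a ring of 5 subunits. Alpha and beta subunits form the GABA binding site, and a gamma, delta, epsilon, theta or pi subunit usually completes the ring and sets where the channel sits and which drugs act on it. Many of the subunit genes lie side by side in clusters on a few chromosomes. They are best known from neurons, where the receptors carry most fast inhibition.

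The SMCHD1 transcript was lower in both knock-downs. On probe A_23_P38723 the normalized log2 signal was 10.43, 10.44 and 10.43 in CTL, 9.49, 9.39 and 9.34 in KD3, and 8.81, 8.86 and 9.01 in KD4. The log2 difference from CTL was -1.03 in KD3 (standard error 0.0755, limma, adjusted p = 6.9e-05) and -1.54 in KD4 (limma, adjusted p = 7.4e-06). The gap between KD4 and KD3 was -0.51 (limma, adjusted p = 0.014). The remaining SMCHD1 probes were also called lower in both knock-downs.

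The median processed signal of an array ran from 119.6 to 181.4, and between 75.1% and 79.8% of probes were well above background, which is the scanner software's mark of a detectable signal. Markers of the HEK293 line were detected on every array for 10 of 10 genes. Of 8 genes typical of mature neurons, 6 were detected on every array, and of 7 genes typical of noradrenergic neuroblastoma 4 were, while PHOX2A and DBH were among those detected on no array. The same mark was reached by 4 of 5 blood cell genes, with HBB detected on no array, so the mark stands for signal and not for abundance. The arrays lay on 2 slides, each with arrays of all 3 groups. Slide 1 held 1 KD3, 2 KD4 and 2 CTL arrays, and slide 2 held 2 KD3, 1 KD4 and 1 CTL array. Values within each slide, which rest on 1 or 2 arrays per group, are given for the members whose groups were separated in a comparison with CTL. In these bulk samples, fewer cells with a transcript and less transcript per cell cannot be told apart.

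Sequences before the start sites of both beta subunit members and of GABRE are shown, since these genes include the widest gap between the hairpins and the brightest member that was called. The set of RefSeq start sites used here, on GRCh38.p14, held 5 of the 7 members and had no entry for GABRA3 and GABRA5. The 250 bases before the start are printed on the coding strand. In the windows of GABRB1 (chr4:47031317-47031566, plus strand) and GABRB2 (chr5:161546726-161546975, minus strand), the longest stretch that both share is in capitals.
GABRB1: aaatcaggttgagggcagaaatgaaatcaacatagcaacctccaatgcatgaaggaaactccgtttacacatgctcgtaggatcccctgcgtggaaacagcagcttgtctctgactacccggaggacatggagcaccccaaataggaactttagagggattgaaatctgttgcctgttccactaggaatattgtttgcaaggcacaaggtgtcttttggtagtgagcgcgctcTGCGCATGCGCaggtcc
GABRB2: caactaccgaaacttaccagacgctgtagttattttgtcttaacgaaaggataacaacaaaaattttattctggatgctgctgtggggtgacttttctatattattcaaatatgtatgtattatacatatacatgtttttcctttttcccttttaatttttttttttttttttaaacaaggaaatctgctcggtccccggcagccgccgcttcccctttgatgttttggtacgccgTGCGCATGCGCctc
In the window of GABRE (chrX:151974677-151974926, minus strand), each CG pair is in capitals.
GABRE: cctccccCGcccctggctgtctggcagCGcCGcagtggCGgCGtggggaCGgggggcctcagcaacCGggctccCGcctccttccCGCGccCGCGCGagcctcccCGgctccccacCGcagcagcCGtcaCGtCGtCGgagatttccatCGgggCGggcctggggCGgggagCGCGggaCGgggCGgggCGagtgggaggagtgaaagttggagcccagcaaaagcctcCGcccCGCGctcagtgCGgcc

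The stretch shared by GABRB1 and GABRB2, TGCGCATGCGC, has 11 bases and ended 7 bases before the GABRB1 start and 4 bases before the GABRB2 start. It resembles the palindrome bound by the transcription factor NRF-1. Searched on both strands, it was present in 215 of 35116 windows (0.612%) and in 2 of the 16 windows found for 13 subunit genes, those of GABRB1 and GABRB2. The stretch was picked by comparing these windows, and binding was not measured. GABRE held 31 CG pairs in its window, and 10.9% of all windows held at least as many. The count was 20 for GABRQ (32.4%), 11 for GABRB2 (50.3%), 8 for GABRB1 (56.3%) and 6, 10 and 23 for the start sites of GABRA2. The median of all windows was 11, and 93.9% of them held at least 1 CG pair. Methylation of these windows was not measured on the arrays.

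**Figure D1:**
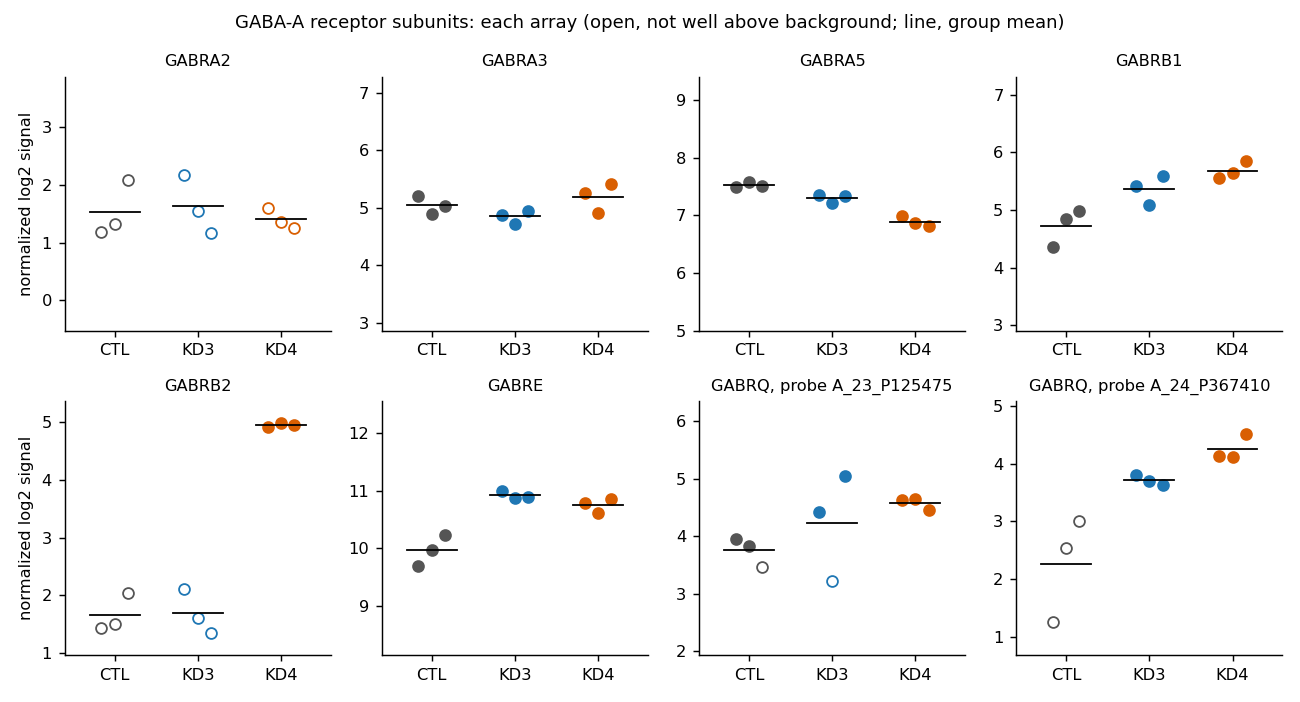
Normalized log2 signal (vertical axis) of the 8 probes of the 7 subunit genes on each array, by group; filled points were well above background, open points were not, and lines are group means. GABRB2 was detected on the 3 KD4 arrays alone, near 4.95, while GABRE rose from 9.96 in CTL to 10.92 in KD3 and 10.76 in KD4.

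Among the alpha subunits, which line the GABA binding site, no member reached the 1.8-fold threshold. GABRA2 was well above background on 0 of 9 arrays, with log2 signals from 1.17 to 2.17, and was not tested. GABRA3, on the X chromosome, had log2 signals of 5.21, 4.89 and 5.03 in CTL, 4.88, 4.72 and 4.95 in KD3, and 5.26, 4.91 and 5.42 in KD4. The groups overlapped in all 3 comparisons, with differences of -0.19 in KD3 and 0.15 in KD4 from CTL and of 0.34 between KD4 and KD3 (standard error 0.141).

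GABRA5, an alpha subunit of receptors that mostly lie outside synapses, was lowest in KD4. Its log2 signals were 7.48, 7.58 and 7.51 in CTL, 7.35, 7.21 and 7.33 in KD3, and 6.98, 6.86 and 6.82 in KD4. Every KD4 array lay below every KD3 array, and every KD3 array below every CTL array. The difference from CTL was -0.23 in KD3 and -0.64 in KD4, and that between KD4 and KD3 was -0.41 (standard error 0.0738). On the separate slides the KD4 difference from CTL was -0.71 and -0.50, so it stayed short of 1.8-fold (log2 difference -0.85) on both.

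The beta subunits gave the widest contrast between the hairpins. GABRB2, a beta subunit abundant in brain, had log2 signals of 1.42, 1.49 and 2.04 in CTL, 2.11, 1.60 and 1.34 in KD3, and 4.91, 4.99 and 4.95 in KD4. The probe was well above background on all 3 KD4 arrays and on no array of CTL or KD3. With the dim groups set to the lowest detectable signal of each array, KD4 was 6.02-fold higher than CTL and 6.01-fold higher than KD3. Undetected signals of other probes lay above that floor, so these folds are not lower bounds. The fitted log2 differences were 3.30 and 3.27 (standard error 0.213), and KD3 and CTL overlapped (0.03). On the separate slides KD4 exceeded KD3 by 3.37 and 3.19. With normexp background correction, where a constant offset is added to every signal, the difference of KD4 was 0.64 from CTL and 0.58 from KD3 and GABRB2 was not called. The calls were also lost with the adjusted t-test of the methods.

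GABRB1, another beta subunit, was lowest in CTL. Its log2 signals were 4.35, 4.84 and 4.99 in CTL, 5.41, 5.08 and 5.58 in KD3, and 5.56, 5.63 and 5.86 in KD4. Every knock-down array lay above every CTL array, and the arrays of the 2 knock-downs overlapped. The difference from CTL was 0.63 in KD3 and 0.96 in KD4, which reached the call in KD4, and KD4 exceeded KD3 by 0.32 (standard error 0.185). The KD3 difference was 0.17 on one slide and 1.14 on the other, and the KD4 difference was 0.83 and 1.21. The KD4 call was lost without CTL replicate 1, the lowest array, where the difference was 0.77, with normexp, where it was 0.37, and with the adjusted t-test of the methods.

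GABRE, the X-linked epsilon subunit, had log2 signals of 9.70, 9.97 and 10.22 in CTL, 11.00, 10.88 and 10.89 in KD3, and 10.79, 10.62 and 10.86 in KD4. All knock-down arrays lay above all CTL arrays, and all KD4 arrays lay below all KD3 arrays. The difference from CTL was 0.96 in KD3 (1.94-fold, called) and 0.79 in KD4 (1.73-fold, short of the threshold), and KD4 and KD3 differed by -0.17 (standard error 0.130). On the separate slides the difference from CTL was 0.78 and 1.25 in KD3 and 0.64 and 1.09 in KD4. Without CTL replicate 1 the KD3 difference was 0.83 and the call was lost, as it was with the adjusted t-test, and without KD4 replicate 2 or CTL replicate 3 KD4 was called as well.

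GABRQ, the X-linked theta subunit, was measured by 2 probes that gave different calls. On probe A_24_P367410 the log2 signals were 1.25, 2.54 and 3.01 in CTL, 3.81, 3.71 and 3.63 in KD3, and 4.14, 4.13 and 4.52 in KD4. The CTL arrays were not well above background, and every KD4 array lay above every KD3 array. With CTL replicate 1 raised to its floor and the other CTL arrays at their own undetected signals, KD3 was 2.17-fold and KD4 3.17-fold higher. These folds are not lower bounds. Both differences were called (fitted values 1.45 and 1.99, standard error 0.376). KD4 exceeded KD3 by 0.55. On the separate slides the difference from CTL was 0.93 and 2.47 in KD3 and 1.55 and 2.89 in KD4. The KD3 call was lost in 10 of 21 alternatives, among them without KD3 replicate 1, without KD3 replicate 3 and with scaling to the 75th percentile, and the KD4 call in 5 of 21, among them both forms of the methods' t-test. With normexp the differences were 0.17 and 0.30 and neither was called, and without CTL replicate 1 the KD3 difference was 0.94. On probe A_23_P125475 the log2 signals were 3.95, 3.83 and 3.47 in CTL, 4.41, 3.23 and 5.05 in KD3, and 4.63, 4.64 and 4.46 in KD4. KD3 and CTL overlapped there, with differences from CTL of 0.48 in KD3 and 0.82 in KD4 (standard error 0.383), and neither was called. On the separate slides the KD3 difference was -0.42 and 0.78, that of KD4 was 0.90 and 0.68, and KD4 minus KD3 was 1.32 and -0.10.

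**Figure D2:**
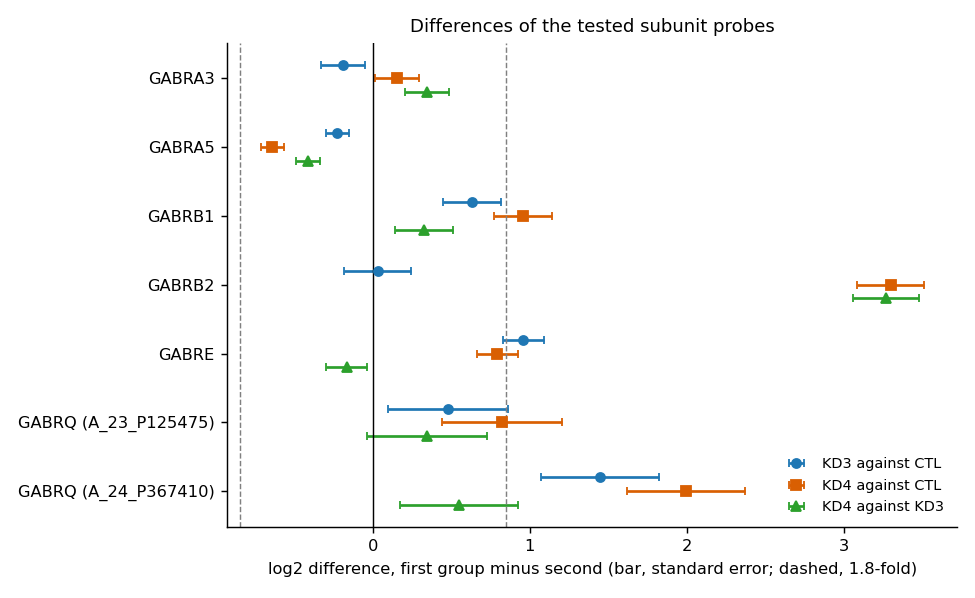
Log2 difference (horizontal axis, first group minus second) of the 7 fitted probes in the 3 comparisons, with bars for the standard error and dashed lines at 1.8-fold. GABRB2 lay at 3.30 for KD4 against CTL and at 0.03 for KD3 against CTL, and GABRA5 lay below 0 in all comparisons.

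Counted over the 6 fitted members, GABRE and GABRQ were called in KD3, where 3.67% of 26862 genes were called in either direction, and GABRB1, GABRB2 and GABRQ were called in KD4 (5.10% of all genes). GABRB2 alone was called between KD4 and KD3 (0.503%). All of these calls were higher in the first group, a direction in which 1.24%, 1.57% and 0.220% of all genes were called in the same order. The groups did not overlap for 4 of 7 member probes in KD3 against CTL (36.0% of all probes), for 6 in KD4 against CTL (44.9%) and for 4 in KD4 against KD3 (29.0%). Since the members were chosen on these contrasts, nothing is read from these counts. The KD3 and KD4 comparisons share the CTL arrays.

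The other 12 subunits of the family had no call in any comparison. Of these, 5 were tested, GABRD, GABRP and GABRR3 among them, and 0 of 5 were called by limma or by the methods' t-test. An unadjusted limma p under 0.05 was reached by 3, 2 and 1 of them in KD3 against CTL, KD4 against CTL and KD4 against KD3. The share of all genes at that level is not given. GABRD, the delta subunit of receptors outside synapses, differed from CTL by -0.65 in KD3 (limma, adjusted p = 0.0101) and by -0.53 in KD4 (limma, adjusted p = 0.0180), short of 1.8-fold. GABRR3, a rho subunit, differed by -0.48 in KD3 (limma, adjusted p = 0.0706) and by -0.00454 in KD4. GABRP, the pi subunit, differed by 0.07 in KD3 and 0.21 in KD4 and was not called. The remaining 7, which include GABRA4, GABRA6, GABRG1, GABRG3, GABRR1 and GABRR2, were well above background on no array and were not tested. Over the 11 tested subunits the median log2 difference was 0.01 in KD3 and 0.15 in KD4, beside 0.01 and 0.04 over all tested genes. These 11 include the fitted members, chosen with their differences known, so nothing is read from the medians.

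Beyond the subunits, 56 genes that make, move, anchor or modulate GABA signalling were listed by role, and 46 were tested. In KD3, 4 were called, with 1 higher and 3 lower. Of all genes, 3.67% were called there, 1.24% higher and 2.43% lower. In KD4, 6 were called, with 3 higher and 3 lower, beside 5.10% of all genes, 1.57% higher and 3.53% lower. Between KD4 and KD3 none was called by limma or the methods' t-test. Of all genes, 0.503% were called in that comparison, 0.220% higher and 0.283% lower. An unadjusted p under 0.05 was reached by 9 and 12 of 46 in these tests, and the share of all genes at that level is not given. The median log2 difference of the list was -0.00208 in KD3 and -0.04 in KD4.

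Among 5 genes of the GABA-B receptor, a metabotropic receptor for GABA, one subunit and one partner protein moved in opposite directions. GABBR2, the subunit that couples to the G protein, had log2 signals of 8.75, 8.98 and 8.87 in CTL, 7.62, 7.25 and 7.35 in KD3, and 7.37, 7.51 and 7.59 in KD4. It fell by 1.46 in KD3 (limma, adjusted p = 8.9e-05) and by 1.38 in KD4 (limma, adjusted p = 9.4e-05). KCTD12, an auxiliary subunit of the receptor, rose on both of its probes, by 1.17 and 1.29 in KD3 and by 1.29 and 1.37 in KD4 (limma, adjusted p from 2.9e-05 to 5.8e-05). With the adjusted t-test of the methods the KD3 calls of GABBR2 and KCTD12 were lost and their KD4 calls were kept. GABBR1, the subunit that binds GABA, was not called on either probe.

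Of 21 genes of receptor assembly and anchoring, LHFPL4 was called lower in both knock-downs and RDX higher in KD4. LHFPL4, which holds GABA-A receptors at inhibitory synapses together with neuroligin 2, fell from 13.69, 13.56 and 13.62 in CTL to between 12.25 and 12.55 on the knock-down arrays. Its log2 difference was -1.30 in KD3 (limma, adjusted p = 1.9e-05) and -1.12 in KD4 (limma, adjusted p = 3.5e-05). RDX, or radixin, which ties receptors with the GABRA5 subunit to actin, rose by 0.90 in KD4 (limma, adjusted p = 0.000319) and by 0.82 in KD3 without reaching 1.8-fold. Its KD4 call was lost without CTL replicate 3 and with the adjusted t-test of the methods. A KD3 call appeared without KD3 replicate 3 or without CTL replicate 2. GPHN, the gephyrin scaffold of inhibitory synapses, differed by -0.00422 in KD3 and -0.14 in KD4 and was not called.

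Of 6 chloride transporters, which set the gradient that the channel uses, SLC12A4 was called lower in both knock-downs. This potassium chloride exporter had log2 signals of 7.77, 7.85 and 8.15 in CTL, and from 6.37 to 6.67 on the 6 knock-down arrays. It fell by 1.35 in KD3 (limma, adjusted p = 0.000122) and by 1.48 in KD4 (limma, adjusted p = 5.6e-05). With the adjusted t-test of the methods its KD3 call was lost and its KD4 call was kept. SLC12A2 differed by 0.09 in KD3 and 0.06 in KD4 and SLC12A5, the neuronal exporter, by -0.56 and -0.57, and neither was called. No gene was called among 7 tested enzymes of GABA synthesis and breakdown, among 2 tested GABA transporters or among 5 tested modulators. None of the 5 listed glycine receptor genes was tested, being too dim or without a probe. GAD1, which makes GABA, differed from CTL by at most 0.22 on its probes.

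**Figure D3:**
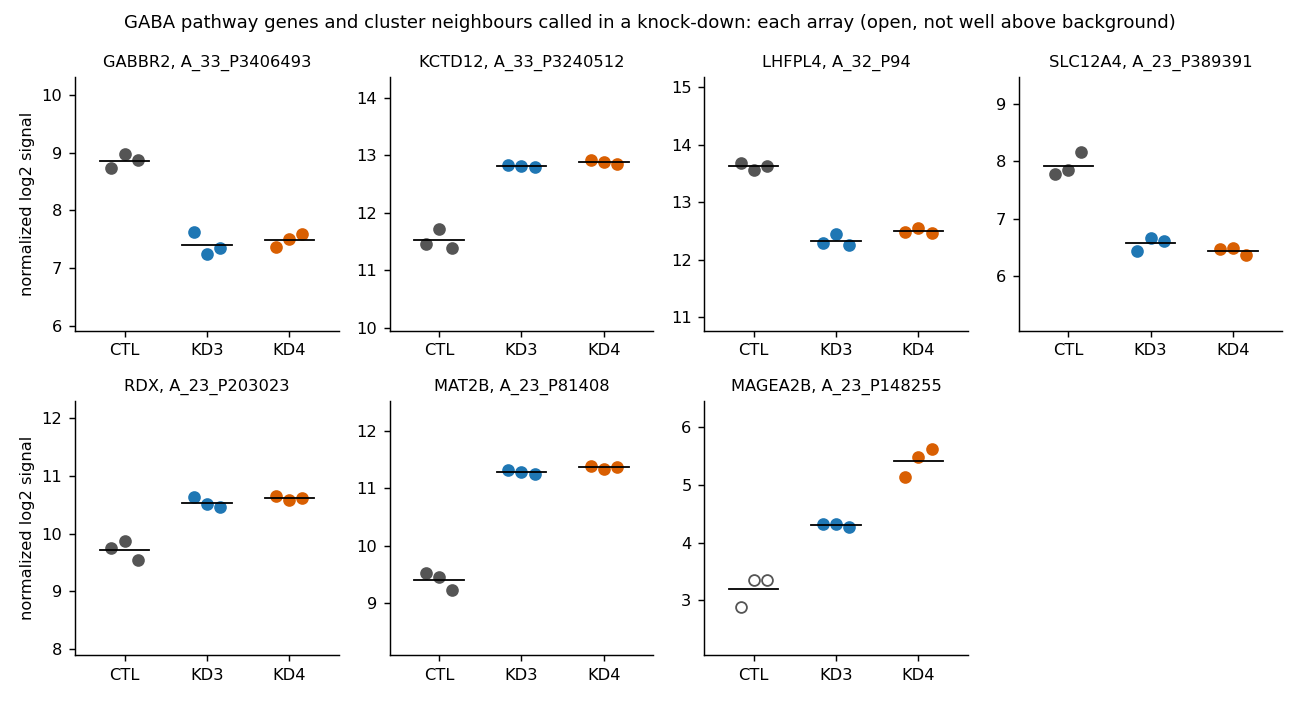
Normalized log2 signal (vertical axis) on each array, by group, for 7 genes called in a knock-down, each by its brightest probe; open points were not well above background. GABBR2, LHFPL4 and SLC12A4 lay below every CTL array on each of the 6 knock-down arrays.

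The members lie in 4 clusters on chromosomes 4, 5, 15 and X, and the nearest 5 protein-coding genes on each side, with those between the subunits, gave 43 neighbours, of which 27 were tested. On chromosome 5, MAT2B lay beyond the far end of the cluster that begins with GABRB2. It is the regulatory subunit of the enzyme that makes the methyl donor S-adenosylmethionine. Its log2 signals were 9.53, 9.45 and 9.23 in CTL, 11.31, 11.28 and 11.24 in KD3, and 11.38, 11.33 and 11.37 in KD4. It rose by 1.87 in KD3 (limma, adjusted p = 7.6e-06) and by 1.96 in KD4 (limma, adjusted p = 3.8e-06), with 1.98 and 1.97 on its second probe. The knock-downs differed by 0.08 for MAT2B (limma, adjusted p = 0.632), beside 3.27 for GABRB2 at the other end of the cluster.

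On the X chromosome, MAGEA2B, a cancer-testis antigen gene beyond GABRQ, was called higher in both knock-downs. Its log2 signals were 2.88, 3.36 and 3.35 in CTL, where it was not well above background, 4.32, 4.33 and 4.27 in KD3, and 5.15, 5.49 and 5.62 in KD4. By the group means KD3 was 2.16-fold and KD4 4.67-fold higher than CTL, whose undetected signals lay above the floor. KD4 exceeded KD3 by 1.11 (limma, adjusted p = 0.0118). Each of these calls was lost with normexp and with the filter on all 9 arrays. The calls in KD3 and between KD4 and KD3 were also lost with the adjusted t-test of the methods. That between KD4 and KD3 was lost without KD4 replicate 2 as well. Near-identical MAGE gene copies make the assignment of this probe to MAGEA2B uncertain. A second MAGEA2B probe was well above background on 1 KD4 array and on no other array, and was not tested. No other neighbour was called in the fit over all 9 arrays without blocks. TENM2 on chromosome 5 was called higher in KD4 under some alternatives, given in the closing section. Of all tested X-linked genes, 8.39% were called higher in KD3, 8.88% in KD4 and 2.80% in KD4 against KD3, and their total was 608. None of 8 tested neighbours on chromosome 4 and none of 6 on chromosome 15 was called in any comparison, except that YIPF7 on chromosome 4 was called higher in KD4, against CTL and against KD3, with the slide or the replicate number as a block. The median over the neighbours was 0.05 in KD3 and 0.22 in KD4.

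**Figure D4:**
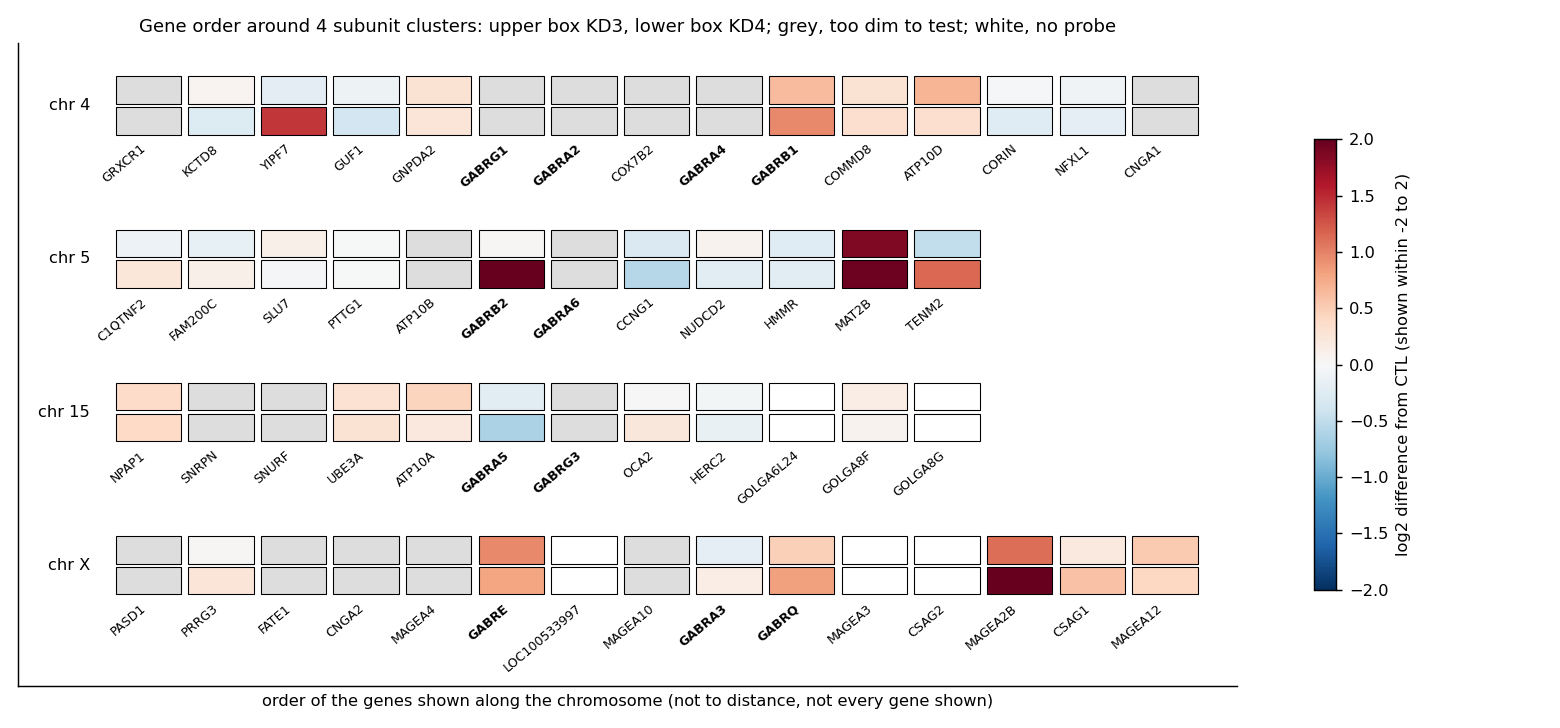
Genes around the 4 subunit clusters in their order along the chromosome (horizontal axis, not to distance and without some of the genes), with subunits in bold and each gene coloured by the log2 difference of its brightest probe from CTL, KD3 in the upper box and KD4 in the lower. Grey boxes were too dim to test and white boxes had no probe. GABRB2 lies near 0 in KD3 and above the scale in KD4, MAT2B is high in both, and YIPF7 and TENM2, coloured in KD4, were not called.

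For each member the genes with the most similar signal were found by Pearson correlation over the 9 arrays, which share their groups, so that similar group means alone raise it. The nearest genes to GABRB2 were TMSB15A (0.982), NR1H3 (0.977) and DCX (0.976), the last of which, encoding the neuronal migration protein doublecortin, had mean log2 signals of 5.34 in CTL, 5.65 in KD3 and 8.33 in KD4. The nearest to GABRE were NKTR (0.996), ST13 (0.984) and CYP4X1 (0.982). For GABRA5 they were KLHL32 (0.989), PRR5L (0.988) and VAMP1 (0.986), and for GABRA3 they were IGSF3 (0.961), CC2D2B (0.942) and YIPF6 (0.927). For GABRB1 they were RMP24 (0.974), CCNH (0.968) and POU5F1 (0.964), and for the brighter probe of GABRQ they were DSPP (0.938), TRUB2 (0.920) and PSCA (0.916).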

How the data were processed

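RNA from 9 samples was labelled with Cy3 and hybridized to one-color Agilent arrays. Each array came as a scanner file that the authors deposited, whose green processed signal is an intensity after background subtraction by Feature Extraction 10.10.1.1 (10.10 in the submitters' processing notes). A second deposited table gives log2 values after quantile normalization of the 9 arrays, and served as an alternative. The methods write quintile normalization, which was read as quantile.

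Here, control spots and those that the scanner software marked non-uniform or outlying (260 to 634 of 58717) were removed, saturated spots (0 found) would have been kept, and quantile normalization of the log2 processed signals used limma 3.58.1 (R 4.3.3). Spots were averaged per probe, and 21 of 42405 probes with no value on some array were dropped. A probe counted as well above background on an array when at least 0.5 of its spots were. Probes above background on all 3 arrays of some group were tested (32276 probes, 26862 genes). Genes were named through RefSeq accessions in a gene table of GRCh38.p14 (25413 probes), and the array design uses an earlier build. Replicates correlated at 0.995 or more. The number of arrays limits the precision.

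A single limma fit held a mean for each group over the 9 arrays. A call needed a Benjamini-Hochberg adjusted p under 0.05 over all tested probes and a fold of at least 1.8, and a gene was called when any probe was. For a group not above background on any array, each array was set to the higher of its lowest detectable signal and the probe's own signal, and other signals below background can exceed that floor. The fit was tested on simulated data. Named were all members, the other subunits, every called gene of the lists of GABA signalling and neighbouring genes, GAD1, GPHN, SLC12A2, SLC12A5, GABBR1 and SMCHD1, and the 3 most correlated named genes for the brightest probe of each member. Some genes of the lists enter the counts and are not reported here by name. Members and lists were chosen with earlier results of these data known. The alternatives tried were normexp with an offset of 50, scaling to the 75th percentile, the authors' table, no or a stricter filter, the t-test of the methods (adjusted or not), the compared groups alone, a block for slide or for replicate number, no fold threshold, the brightest probe of a gene, and leaving out each array. Replicate numbers did not pair the samples by the check in the closing section.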

Additional observations from a re-analysis of the deposited data

Results flagged for a closer look

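GABRB2 was picked out because its signal differed between the knock-downs, with a log2 difference of 3.27 for KD4 minus KD3, and the probe was detected on the 3 KD4 arrays alone. This contrast was among those on which the gene was chosen, so it is a description. MAGEA2B, a neighbour of the X-linked cluster, was picked out for the same reason, with a difference of 1.11 for KD4 minus KD3 (limma, adjusted p = 0.0118).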

How the results depend on the processing

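No called difference of a member changed sign under an alternative. Differences that were not called did so for GABRA2 in all 3 comparisons (to 0.22 in KD4 against CTL with scaling to the 75th percentile), for GABRB2 in KD3 against CTL (lowest -0.18) and for GABRQ probe A_23_P125475 in KD4 against KD3 (lowest -0.15). Of 189 recomputed counts 43 differed by over 1.5 times, and of 408 recomputed differences of members 23 moved by more than the spread between replicates. Subunits called in KD3 (2) became 1 with scaling to the 75th percentile, normexp, no filter, the filter on all 9 arrays, the unadjusted t-test, the compared groups alone, or the brightest probe, 0 with the adjusted t-test of the methods, and 4 with no fold threshold. Subunits called in KD4 (3) became 0 with normexp or the adjusted t-test, 1 with the filter on all 9 arrays and 6 with no fold threshold. Between KD4 and KD3 the 1 call became 0 with normexp, the filter on all 9 arrays or the adjusted t-test, and 2 with no fold threshold. Under the stricter filter GABRB2 and the dim GABRQ probe could not be tested. GABRG3, dim on all arrays, was called in KD4 with no filter. The share of all genes called under each alternative is not given, so nothing is read from these counts or from those below.

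Signalling genes called in KD3 (4) became 1 with the adjusted t-test and 18 with no fold threshold, and those in KD4 (6) became 20 with no fold threshold. Between the knock-downs, 0 became 1 with the authors' table or the slide as a block, which added GLS2, named here after its values were seen, and 2 with no fold threshold. Neighbours called in KD3 (2) became 1 with normexp, the filter on all 9 arrays or the adjusted t-test, and 5 with no fold threshold. Those in KD4 (2) became 1 with normexp or the filter on all 9 arrays, and 8 with no fold threshold, and 3 with the slide or the replicate block (adding YIPF7), the compared groups alone or the unadjusted t-test (adding TENM2). Between the knock-downs, 1 became 0 with normexp, the filter on all 9 arrays or the adjusted t-test, and 2 with the slide or the replicate block, which again added YIPF7. YIPF7 and TENM2 were named after their values were seen. The cause of these shifts was not tested, except that the stricter filter and the fold threshold act by their construction.

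Leaving out 1 array at a time gave 1 to 2 subunits in KD3, 2 to 4 in KD4 and 1 to 1 between the knock-downs. It gave 4 to 5, 5 to 7 and 0 to 1 signalling genes and 2 to 2, 2 to 3 and 0 to 2 neighbours in the same order. GLS2 was added between the knock-downs without KD3 replicate 1, KD3 replicate 3 or KD4 replicate 2, SLC12A5 in KD4 without KD4 replicate 1, and TENM2 in KD4 without KD3 replicate 1 or 2 and between the knock-downs without KD3 replicate 1.

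Samples with the same replicate number did not deviate together, since 3 of 9 pairs correlated over 0.1 (from -0.08 to 0.14) and 5 of 9 arrays correlated best with their own number. With the replicate block, the number of called subunits and signalling genes stayed within 1.5 times, while neighbours went from 2 to 3 in KD4 and from 1 to 2 between the knock-downs. Signals near background limit GABRA2, GABRB2 and GABRQ most, where the dim groups have no measured level.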
